A study of Homo sapiens with 16 samples.

Results

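The genes described here are 9 small nucleolar RNA (snoRNA) host genes, chosen by symbol: GAS5, SNHG1, SNHG3, SNHG5, SNHG6, SNHG8, SNHG12, SNHG15 and SNHG16. Each symbol matched 1 row of the deposited count table, so the set is 9 of 34618 genes, and all 9 passed the filter on low counts in every comparison. They were measured by sequencing of polyadenylated RNA in 16 libraries of KG1A and U937, both human cell lines of acute myeloid leukaemia. The 4 groups were KG1A with NEL at 10 µM, KG1A with the vehicle DMSO, U937 with NEL at 10 µM and U937 with DMSO, with 4 libraries in each group. Every culture grew in RPMI medium with dialyzed serum and antibiotics. NEL is read here as nelarabine, a prodrug of the nucleoside analogue ara-G. That reading rests on what is known of the study, since the labels do not spell the name out, and the labels give no treatment time. The design asks how NEL differs from vehicle, and having a pair of lines allows the NEL effects to be compared with each other.

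A snoRNA host gene is transcribed and spliced like a messenger RNA gene, and its introns are trimmed into snoRNAs that guide the chemical modification and processing of ribosomal RNA. C/D box snoRNAs guide methylation of ribose, and H/ACA box snoRNAs guide the change of uridine to pseudouridine. The spliced exons of a non-coding host have no long reading frame: many begin with a 5′ terminal oligopyrimidine (TOP) tract, as ribosomal protein mRNAs do, and are degraded by nonsense-mediated decay (NMD) when ribosomes engage their short frames. Their level in a growing cell therefore reflects both transcription and this decay, and polyadenylated RNA shows the host transcript, not the snoRNA.

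The TOP tract is the feature that ties these hosts to ribosomal protein genes, so the first 30 bases of 1 annotated transcript of each host are shown, from GENCODE 29 (GRCh38). Capitals mark a start with C followed by at least 4 more pyrimidines, and the transcript shown is the lowest-numbered one with such a start. Where no transcript of the gene begins that way, as in SNHG15, no base is in capitals. No sequence of SNHG6 is shown.
GAS5 (chr1:173867960-173867989, minus strand): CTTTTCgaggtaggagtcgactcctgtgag
SNHG1 (chr11:62855450-62855479, minus strand): CTCCTgtctgcaggatttacgcgcacgttg
SNHG3 (chr1:28506043-28506072, plus strand): CCTTTTTggagacagattcgcagtggtcgc
SNHG5 (chr6:85678704-85678733, minus strand): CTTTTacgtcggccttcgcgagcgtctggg
SNHG8 (chr4:118278758-118278787, plus strand): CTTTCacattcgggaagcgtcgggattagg
SNHG12 (chr1:28581844-28581873, minus strand): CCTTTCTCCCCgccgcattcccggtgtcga
SNHG15 (chr7:44986541-44986570, minus strand): ccgccatcctgggccccacgtgttgcctga
SNHG16 (chr17:76557769-76557798, plus strand): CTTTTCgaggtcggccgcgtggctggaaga
At least 1 annotated transcript began with such a tract in 8 of the 9 hosts, which is 88.9%. The share was 83.5% of 79 ribosomal protein genes and 6.75% of 57133 annotated genes. The run was 11 bases in SNHG12, 7 in SNHG3, 6 in GAS5 and SNHG16, and 5 in SNHG1, SNHG5 and SNHG8. Genes with many annotated transcripts have more chances of such a start: GAS5 had it in 6 of 29 transcripts and SNHG3 in 1 of 3. The SNHG1 transcript shown, 1 of 25, starts within the gene, past SNORD25, so it is not the first start of SNHG1.

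The hosts differ in the snoRNAs they carry, and these are shown because they set the order of the results. SNHG3, SNHG8 and SNHG15 carry H/ACA snoRNAs, SNHG12 carries both kinds, and GAS5, SNHG1, SNHG5, SNHG6 and SNHG16 carry C/D snoRNAs. The sequences are GENCODE 29 (GRCh38) transcripts of snoRNAs within these hosts. Capitals mark the ACA triplet 3 bases from the end of an H/ACA snoRNA, or the C box (TGATGA) and D box (CTGA) of a C/D snoRNA. Only snoRNAs with an exact match to these boxes are among those shown. Others of these hosts, such as SNORD26 in SNHG1 and SNORA44 in SNHG12, had no such match.
SNORA73A (in SNHG3, chr1:28507366-28507571, plus strand): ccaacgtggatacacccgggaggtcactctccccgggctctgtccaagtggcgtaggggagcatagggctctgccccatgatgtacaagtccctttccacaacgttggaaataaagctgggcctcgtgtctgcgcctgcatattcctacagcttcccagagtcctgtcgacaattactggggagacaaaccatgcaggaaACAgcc
SNORA73B (in SNHG3, chr1:28508559-28508762, plus strand): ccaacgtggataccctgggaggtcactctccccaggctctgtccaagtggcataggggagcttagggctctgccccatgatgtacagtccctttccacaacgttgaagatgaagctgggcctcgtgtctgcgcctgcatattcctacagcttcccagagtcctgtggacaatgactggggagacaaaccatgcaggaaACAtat
SNORA24 (in SNHG8, chr4:118279190-118279320, plus strand): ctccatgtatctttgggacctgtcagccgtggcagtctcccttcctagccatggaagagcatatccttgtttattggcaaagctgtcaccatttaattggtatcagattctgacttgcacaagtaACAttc
SNORA9 (in SNHG15, chr7:44985378-44985510, minus strand): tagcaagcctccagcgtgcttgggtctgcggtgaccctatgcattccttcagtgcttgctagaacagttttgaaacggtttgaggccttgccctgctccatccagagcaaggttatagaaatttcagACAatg
SNORA61 (in SNHG12, chr1:28579764-28579893, minus strand): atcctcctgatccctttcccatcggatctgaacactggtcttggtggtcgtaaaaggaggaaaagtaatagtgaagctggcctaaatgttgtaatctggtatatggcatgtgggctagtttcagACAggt
SNORD25 (in SNHG1, chr11:62855564-62855632, minus strand): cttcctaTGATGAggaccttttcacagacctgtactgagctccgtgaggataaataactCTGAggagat
SNORD50B (in SNHG5, chr6:85677589-85677658, minus strand): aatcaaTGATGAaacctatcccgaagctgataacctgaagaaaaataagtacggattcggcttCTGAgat
SNORD1B (in SNHG16, chr17:76561109-76561192, plus strand): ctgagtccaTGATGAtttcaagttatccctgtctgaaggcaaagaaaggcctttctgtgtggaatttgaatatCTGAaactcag
SNORA73A and SNORA73B, the pair carried by SNHG3, were 93.2% identical over 206 aligned positions. Of 32 snoRNAs listed for these hosts, only SNORD87, carried by SNHG6, had a row in the table. It had 0 counts in every library, which allows up to 0.282 CPM in the shallowest library, counting error only. The other snoRNAs were not analysed here.

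Total counts ran from 10641567 to 11777684 per library. KG1A libraries held the stem and progenitor antigen CD34 at 999 ± 67.2 CPM with NEL and 910 ± 44.5 with DMSO (SD, n = 4 each), against 0.812 ± 0.361 CPM in U937 with NEL and 0.325 ± 0.286 in U937 with DMSO (SD, n = 4 each). The stem cell antigen PROM1 was low even in KG1A, at 2.22 CPM with NEL and 1.09 with DMSO. U937 libraries held the monocyte genes CD4, LYZ and SPI1, which averaged at most 4.70 CPM in KG1A, and both lines held SPN. KG1A libraries also held the T cell genes CD3D and CD3E, at means of 28.1 to 121 CPM. The erythroid gene HBB was at 0 counts in all 16 libraries. Libraries 1 and 3 of every group stood apart from libraries 2 and 4: the mean chi-square per gene between replicates was 1.26 to 1.98 within these sets and 3.88 to 8.47 across them. The labels do not say whether libraries come from separate cultures, so the p-values cover variation among libraries of 1 group, and that variation could be technical only.

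Host levels are given in CPM, which here means counts brought to 1 common library size with TMM (trimmed mean of M values) factors over all 16 libraries, for comparisons of 1 gene between groups. RPKM, the deposited counts divided by exon length and library total, is used between genes. A gene was called where the adjusted p of edgeR's quasi-likelihood test was under 0.05 over all genes tested. In these whole-culture RNA pools, fewer cells holding a transcript and less of it per cell cannot be told apart.

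In KG1A, 7 of the 9 hosts fell with NEL and 1 rose. SNHG3 and SNHG8 fell most, SNHG5, SNHG6, SNHG15, SNHG16 and GAS5 fell by 1.12-fold to 1.27-fold, SNHG12 rose, and SNHG1 was not called. In U937, 7 again fell with NEL and 1 rose, but not all of the 7 were shared, as counted further on: SNHG3, SNHG15 and SNHG16 fell most, GAS5, SNHG1, SNHG12 and SNHG8 fell less, SNHG6 rose, and SNHG5 was not called. The 9 hosts together made 973 ± 28.0 CPM in KG1A with NEL and 1141 ± 31.9 with DMSO, and 514 ± 18.1 CPM in U937 with NEL and 692 ± 21.3 with DMSO (SD, n = 4 each). The summed levels did not overlap between NEL and DMSO in either line.

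These counts stand beside wide changes across all genes. In KG1A, 47.2% of 14250 genes tested were called, 23.6% higher and 23.6% lower, and 41.9% did not overlap between NEL and DMSO libraries. Of the calls in KG1A, 50.04% were higher, against 64.5% on log2 RPKM values. In U937, 69.3% of 14390 genes were called, 34.6% higher and 34.7% lower, and 62.6% did not overlap. Called lower were 7 of 9 hosts, or 77.8%, in each line, above both shares for lower calls. The hosts were chosen with earlier results of these data known, so this excess is a description and not a test. Without overlap were 6 of 9 hosts in KG1A, beside 41.9% of genes tested. In U937 they were 7 of 9, beside 62.6%, which is not far from that share. The median log2 fold change over the hosts was −0.30 in KG1A and −0.34 in U937, against −0.00446 and −0.00436 over all genes tested. Each host had at least 221 counts in every library, far above the filter, and genes with more counts are called more easily.

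**Figure D1:**
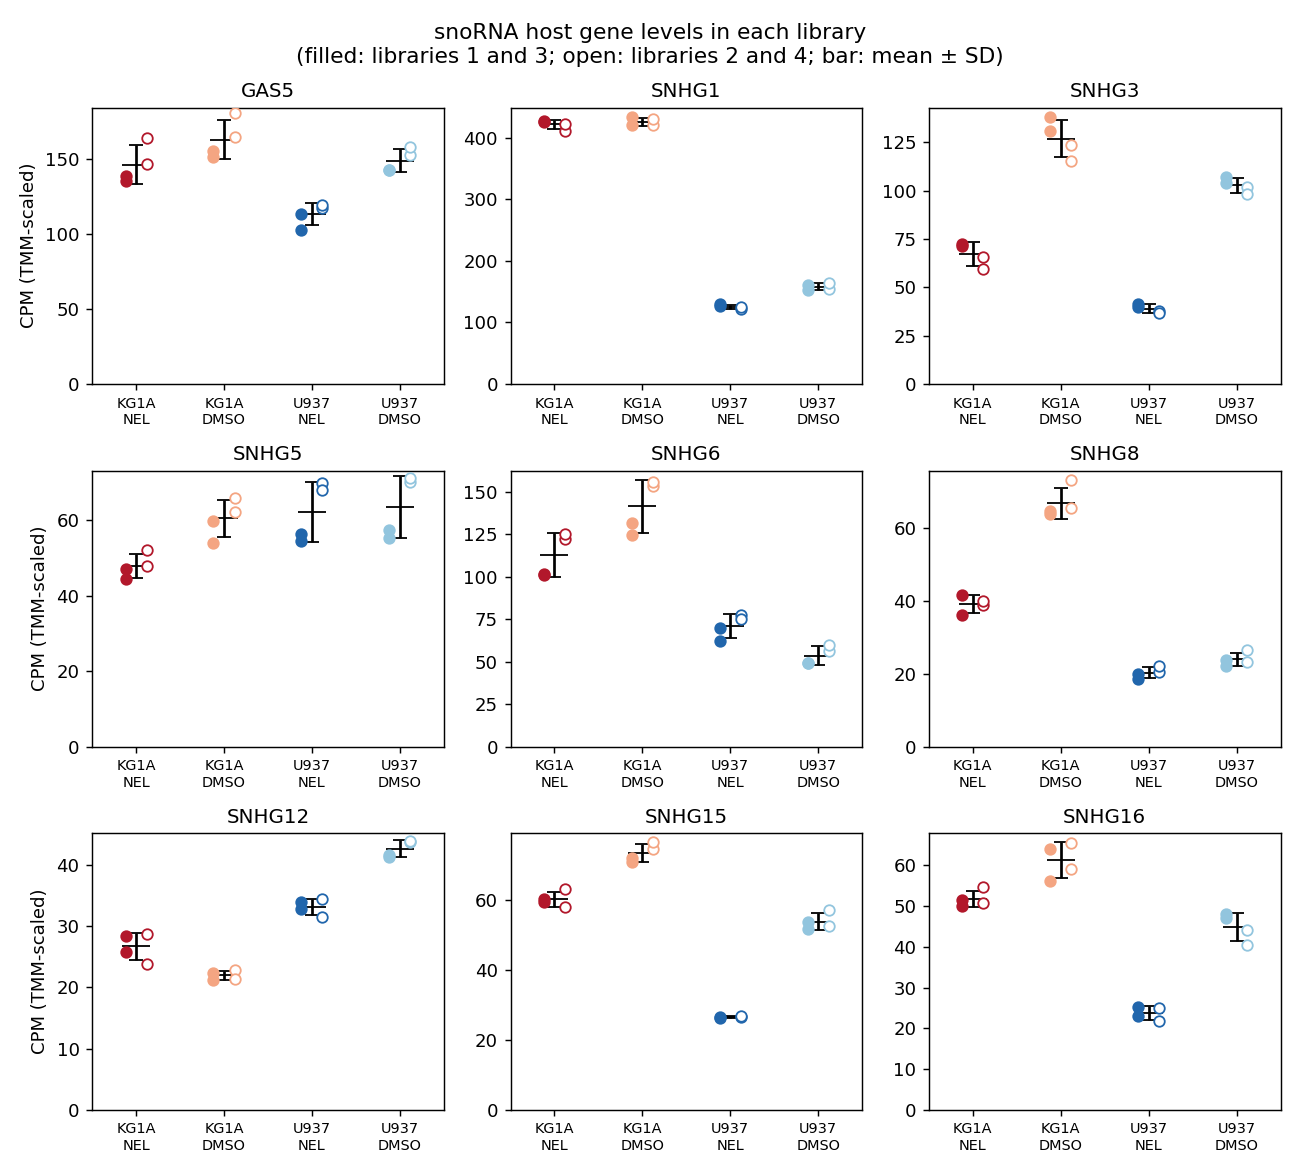
CPM (TMM-scaled) of the 9 snoRNA host genes in each library, by line and treatment, with 1 panel per gene and axes from 0; filled points are libraries 1 and 3, open points libraries 2 and 4, and bars are mean ± SD (n = 4). NEL points lie below DMSO points in both lines for SNHG3, SNHG15 and SNHG16, while SNHG6 lies higher with NEL in U937 and SNHG12 higher with NEL in KG1A.

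Among the H/ACA hosts, SNHG3 (ENSG00000242125) lies on the plus strand at chr1:28832492-28837404 in GRCh37, the build of the deposited tables. In KG1A it had 72.5, 59.2, 71.2 and 65.6 CPM in NEL libraries 1 to 4, against 138, 124, 131 and 115 CPM in DMSO libraries 1 to 4. Every NEL library was far below every DMSO library. The log2 fold change was −0.93 ± 0.07 (SE), 1.90-fold lower (edgeR adjusted p = 9.33e-08).

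U937 held SNHG3 at 39.9, 37.9, 41.5 and 36.7 CPM with NEL, against 107, 102, 104 and 98.0 CPM with DMSO. The groups were again apart, and the change was the largest of any host in either line, −1.38 ± 0.05 on the log2 scale (SE; edgeR adjusted p = 4.56e-11). RCC1, a nucleotide exchange factor for the GTPase Ran, is annotated on the same strand over all 4913 bases of SNHG3, so how the counting split their reads sets both values and SNHG3 is uncertain. RCC1 had 107 ± 1.34 CPM with NEL and 102 ± 4.38 with DMSO in KG1A (SD, n = 4 each), where it was not called (log2 fold change 0.07, edgeR adjusted p = 0.185). In U937, RCC1 had 108 ± 3.31 CPM with NEL and 225 ± 1.16 with DMSO (SD, n = 4 each; log2 fold change −1.04, edgeR adjusted p = 4.51e-11). SNHG3 and RCC1 thus fell together in U937, while in KG1A SNHG3 fell beside an uncalled RCC1; the part of RCC1 reads in SNHG3 was not tested.

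SNHG8 (ENSG00000269893; chr4:119199864-119200978, plus strand, GRCh37) is the shortest host, with 923 exon bases, and carries SNORA24. KG1A libraries had 36.1, 39.0, 41.7 and 40.1 CPM with NEL, against 63.8, 65.6, 64.8 and 73.1 CPM with DMSO. There was a wide gap between the groups, and the log2 fold change was −0.78 ± 0.06 (SE), 1.72-fold lower (edgeR adjusted p = 1.13e-07). In U937, SNHG8 had 18.7, 20.6, 19.9 and 22.2 CPM with NEL, against 23.8, 23.4, 22.2 and 26.6 CPM with DMSO. These groups met at 22.2 CPM, and the fall of −0.22 ± 0.08 (SE; edgeR adjusted p = 0.0234) was lost on leaving out NEL library 1 or 3 or DMSO library 4 (adjusted p 0.0503 to 0.0735). It was lost too with upper quartile scaling (0.0776), on log2 RPKM values (0.133) and in libraries 2 and 4 alone (0.0589). PRSS12, a protease gene 214 bases away on the other strand, was not called for NEL in U937 (log2 fold change −0.12).

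SNHG15 (ENSG00000232956; chr7:45022622-45026560, minus strand, GRCh37) carries SNORA9. In KG1A it had 59.3, 58.1, 60.2 and 62.9 CPM with NEL, against 72.0, 74.4, 70.9 and 76.4 CPM with DMSO. The groups did not overlap, with a log2 fold change of −0.30 ± 0.04 (SE; edgeR adjusted p = 7.59e-05). U937 had 26.2, 26.4, 26.4 and 26.9 CPM with NEL, against 51.5, 57.0, 53.8 and 52.5 CPM with DMSO. The 4 NEL libraries were nearly level, at 2.00-fold below DMSO (log2 fold change −1.001 ± 0.05 SE; edgeR adjusted p = 1.3e-09). Its neighbour MYO1G, a myosin gene of blood cells 3924 bases away on the same strand, went the other way in U937 (log2 fold change 1.37, edgeR adjusted p = 1.13e-11) and was not called in KG1A (0.04).

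SNHG12, which carries both kinds of snoRNA (ENSG00000197989; chr1:28905050-28909495, minus strand, GRCh37), was the host called higher in KG1A. There it had 28.3, 23.9, 25.8 and 28.6 CPM with NEL, against 21.2, 22.9, 22.3 and 21.4 CPM with DMSO. The gap between the groups was narrow, and the log2 fold change was 0.27 ± 0.07 (SE), 1.21-fold higher (edgeR adjusted p = 0.00657). In U937, SNHG12 had 32.7, 31.5, 33.99 and 34.4 CPM with NEL, against 41.6, 43.7, 41.2 and 43.9 CPM with DMSO. Here all NEL libraries were below all DMSO libraries, with a log2 fold change of −0.34 ± 0.05 (SE; edgeR adjusted p = 6.29e-05). The gene TRNAU1AP overlaps it by 2 bases on the other strand and was not called for NEL in either line.

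Among the C/D hosts, GAS5 (ENSG00000234741; chr1:173833038-173838020, minus strand, GRCh37) is named for rising in growth-arrested cells and is a textbook target of NMD. In KG1A, GAS5 had 139, 147, 135 and 164 CPM with NEL, against 155, 164, 151 and 180.1 CPM with DMSO. NEL and DMSO libraries overlapped, libraries 2 and 4 being the higher in both groups. The fall of −0.17 ± 0.06 on the log2 scale (SE; edgeR adjusted p = 0.0383) was lost on leaving out NEL library 1, 2 or 3 or DMSO library 2 or 4 (adjusted p 0.0688 to 0.132) and on log2 RPKM values (0.3).

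GAS5 in U937 had 113, 117, 102 and 119 CPM with NEL, against 142, 152, 142 and 158 CPM with DMSO. These groups were apart, and the log2 fold change was −0.38 ± 0.05 (SE; edgeR adjusted p = 2.39e-05). ZBTB37, a zinc finger gene that overlaps GAS5 by 801 bases on the other strand, moved the opposite way in U937 (log2 fold change 0.42, edgeR adjusted p = 0.00011), and was not called in KG1A (0.11, edgeR adjusted p = 0.299). GAS5-AS1, which overlaps GAS5 by 42 bases on the other strand, was not called in U937 (0.16, edgeR adjusted p = 0.529) and fell in KG1A as GAS5 did (−0.63, edgeR adjusted p = 0.025), where it had 20 to 27 counts per library with NEL and 24 to 47 with DMSO. The sources used here do not give the strand setting of the counting, so the share of antisense reads in GAS5 was not tested.

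SNHG1 (ENSG00000255717; chr11:62619460-62623386, minus strand, GRCh37), the host of SNORD22 and of SNORD25 to SNORD31, was the host with most counts. KG1A libraries had 427, 411, 425 and 422 CPM with NEL, against 420.0, 421, 433 and 429.6 CPM with DMSO. The groups overlapped, and the log2 fold change of −0.03 ± 0.03 (SE) was not called (edgeR adjusted p = 0.563). U937 libraries had 130, 122, 126 and 124 CPM with NEL, against 152, 154, 161 and 164 CPM with DMSO. Here the groups did not overlap, at −0.31 ± 0.04 on the log2 scale (SE; edgeR adjusted p = 1.47e-05). SLC3A2, an amino acid transporter chain whose gene starts 131 bases away on the other strand, also fell in U937 (log2 fold change −0.40, edgeR adjusted p = 0.000131) and was not called in KG1A (0.06).

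SNHG5 (ENSG00000203875; chr6:86370710-86388451, minus strand, GRCh37) carries SNORD50A and SNORD50B. In KG1A it had 44.4, 47.8, 47.1 and 52.1 CPM with NEL, against 53.8, 65.8, 59.7 and 62.0 CPM with DMSO. No NEL library reached the lowest DMSO library, and the log2 fold change was −0.35 ± 0.06 (SE; edgeR adjusted p = 0.000431). U937 had 54.3, 69.9, 56.2 and 68.0 CPM with NEL, against 57.3, 69.9, 55.2 and 71.1 CPM with DMSO. In U937 the libraries separated by number and not by treatment, libraries 2 and 4 being high in both groups. The log2 fold change there was −0.01 ± 0.10 (SE; edgeR adjusted p = 0.919).

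SNHG6 (ENSG00000245910; chr8:67833919-67838633, minus strand, GRCh37), the host of SNORD87, went in opposite directions. KG1A libraries had 102, 122, 101 and 125 CPM with NEL, against 125, 154, 132 and 156 CPM with DMSO. The highest NEL library just passed the lowest DMSO library, and the log2 fold change was −0.34 ± 0.08 (SE; edgeR adjusted p = 0.00291). U937 libraries had 69.7, 77.8, 62.1 and 75.3 CPM with NEL, against 49.3, 56.4, 49.4 and 59.9 CPM with DMSO. All NEL libraries were above all DMSO libraries, at 1.34-fold higher (log2 fold change 0.42 ± 0.08 SE; edgeR adjusted p = 0.00027). MCMDC2, a meiotic gene that overlaps SNHG6 by 365 bases on the other strand, fell in KG1A (log2 fold change −0.42, edgeR adjusted p = 0.00566) and was not called in U937 (0.03).

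SNHG16 (ENSG00000163597; chr17:74553848-74561430, plus strand, GRCh37) carries SNORD1A, SNORD1B and SNORD1C. In KG1A it had 49.98, 50.7, 51.6 and 54.7 CPM with NEL, against 56.1, 59.2, 64.1 and 65.6 CPM with DMSO. The groups were apart by a small gap, at −0.25 ± 0.06 on the log2 scale (SE; edgeR adjusted p = 0.00178). In U937, SNHG16 had 25.3, 21.8, 23.0 and 25.04 CPM with NEL, against 47.1, 40.6, 48.1 and 44.1 CPM with DMSO. The U937 groups were far apart, 1.87-fold lower with NEL (log2 fold change −0.90 ± 0.07 SE; edgeR adjusted p = 5.45e-08). ST6GALNAC2, a sialyltransferase gene on the other strand, overlaps SNHG16 by 1639 bases and fell with it, by −0.31 in KG1A (edgeR adjusted p = 0.000491) and −1.09 in U937 (edgeR adjusted p = 4.95e-07). Its counts, 128 to 435 per library over the 4 groups, were not separated from those of SNHG16 by any stated strand setting, and their part in the SNHG16 result was not tested.

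The NEL effect differed between the lines for all 9 hosts by the test of the difference itself, where 47.4% of 16117 genes were called, 21.1% higher and 26.3% lower. SNHG15, SNHG16, SNHG12, SNHG3, SNHG1 and GAS5 changed more negatively in U937, and SNHG6, SNHG8 and SNHG5 less negatively or upward. The difference, U937 minus KG1A, was −0.71 ± 0.06 for SNHG15 (SE; edgeR adjusted p = 7.87e-09). For SNHG6 it was 0.75 ± 0.12 (SE; edgeR adjusted p = 3.13e-05), as SNHG6 rose in U937 and fell in KG1A. SNHG12 differed by −0.62 ± 0.09 in the other sense, falling in U937 and rising in KG1A (SE; edgeR adjusted p = 3.3e-06). In all, 5 hosts were called lower in both lines (GAS5, SNHG3, SNHG8, SNHG15 and SNHG16), 2 were called in opposite directions, and 2 in 1 line only. Among the 5, the calls of GAS5 in KG1A and SNHG8 in U937 were lost under some alternatives. The shares of all genes in these classes were not counted, so no excess is read from these counts.

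The remaining differences were −0.66 ± 0.09 for SNHG16 (SE; edgeR adjusted p = 2.75e-06) and 0.55 ± 0.10 for SNHG8 (SE; edgeR adjusted p = 5.99e-05). SNHG3 differed by −0.46 ± 0.09 (SE; edgeR adjusted p = 0.000255) and SNHG1 by −0.30 ± 0.05 (SE; edgeR adjusted p = 4.25e-05). The differences of GAS5, −0.22 ± 0.09 (SE; edgeR adjusted p = 0.0389), and SNHG5, 0.32 ± 0.13 (SE; edgeR adjusted p = 0.0417), were the closest to the threshold. GAS5 lost its call with DESeq2 size factors (adjusted p = 0.214), upper quartile factors (0.159), the DESeq2 test (0.264) and log2 RPKM values (0.115 and 0.119). It also lost its call on leaving out any of 8 libraries (KG1A NEL 2 or 4, KG1A DMSO 1 or 3, U937 NEL 1 or 3, U937 DMSO 2 or 4; 0.055 to 0.0967). SNHG5 lost its call on leaving out any of 10 libraries (KG1A NEL 1, 2 or 3, KG1A DMSO 2, 3 or 4, U937 NEL 2 or 4, U937 DMSO 1 or 3; 0.0586 to 0.0985). These differences depend on the scaling: the median over all genes tested was −0.03 with TMM and 0.05 with DESeq2 size factors.

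**Figure D2:**
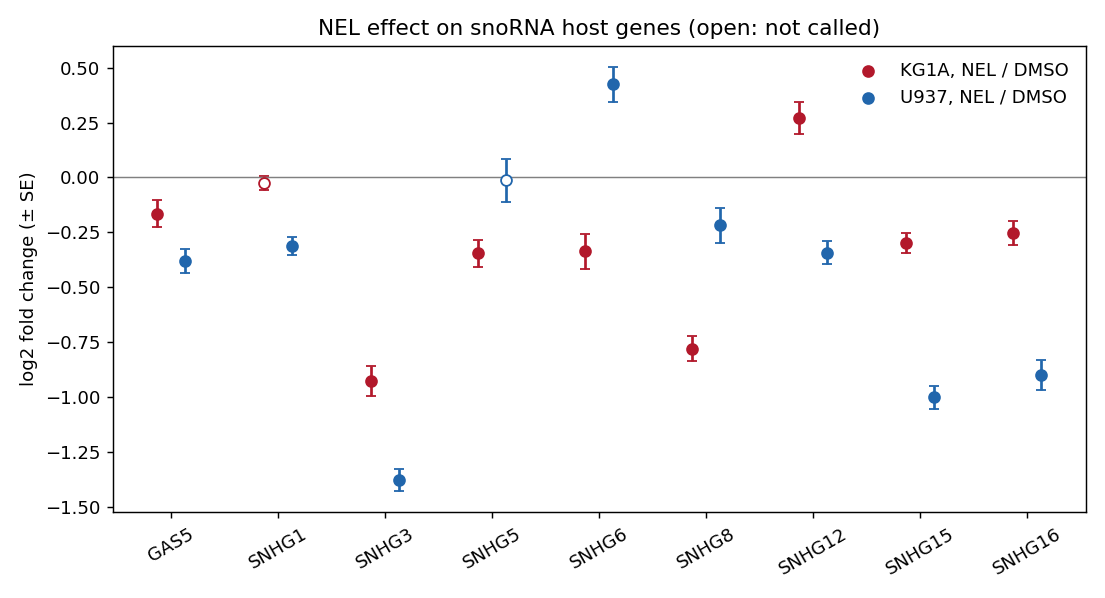
Log2 fold change of NEL over DMSO (± SE) for each snoRNA host gene in KG1A (red) and U937 (blue), with open points for the hosts not called by edgeR. SNHG3 is lowest in both lines, at −0.93 in KG1A and −1.38 in U937, and SNHG6 and SNHG12 have points on both sides of 0.

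Without NEL, U937 held less than KG1A of 7 hosts and more of 1. Of 15181 genes tested, 86.4% were called between the DMSO groups, 43% higher and 43.4% lower in U937, so 8 of 9 hosts called is near the background. SNHG8 had 24.0 ± 1.87 CPM in U937 with DMSO and 66.8 ± 4.26 in KG1A with DMSO (SD, n = 4 each; log2 fold change −1.497 ± 0.066 SE, edgeR adjusted p = 1.18e-12). SNHG1 had 158 ± 5.93 CPM in U937 and 426 ± 6.50 in KG1A (SD, n = 4 each; −1.45 ± 0.04 SE, edgeR adjusted p = 2.57e-15). SNHG6 had 53.7 ± 5.31 CPM in U937 and 141 ± 15.7 in KG1A (SD, n = 4 each; −1.42 ± 0.08 SE, edgeR adjusted p = 2.13e-11). These 3 hosts were thus 2.67-fold to 2.82-fold lower in U937, with no overlap.

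SNHG12 was the host called higher in U937, at 42.6 ± 1.39 CPM against 21.9 ± 0.787 in KG1A (SD, n = 4 each; log2 fold change 0.94 ± 0.06 SE, edgeR adjusted p = 1.77e-10). SNHG15 (−0.47), SNHG16 (−0.47) and SNHG3 (−0.33) were lower in U937 without overlap. GAS5 was called lower with overlap, at 149 ± 7.68 CPM in U937 and 163 ± 12.8 in KG1A (SD, n = 4 each; −0.15 ± 0.05 SE, edgeR adjusted p = 0.0185). That call was lost on leaving out U937 DMSO library 1 or 3 or KG1A DMSO library 4 (adjusted p 0.0539 to 0.0803). SNHG5 was not called, at 63.4 ± 8.27 CPM in U937 and 60.4 ± 5.02 in KG1A (SD, n = 4 each; 0.05 ± 0.08 SE, edgeR adjusted p = 0.559). In all, 7 hosts did not overlap between the lines, where 81.4% of genes tested did not.

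Per exon length, SNHG6 and SNHG1 had the highest levels and SNHG12 or SNHG16 the lowest. In KG1A with NEL the order of mean RPKM was SNHG1 (111 ± 1.53), SNHG6 (90.2 ± 10.8), SNHG8 (42.4 ± 2.70), GAS5 (40.1 ± 3.68), SNHG5 (21.6 ± 1.55), SNHG15 (16.4 ± 0.605), SNHG3 (16.4 ± 1.41), SNHG16 (9.62 ± 0.420) and SNHG12 (7.87 ± 0.649; SD, n = 4). Within that order SNHG8 overlapped GAS5 and SNHG15 overlapped SNHG3. In KG1A with DMSO the order was SNHG6 (109 ± 12.1), SNHG1 (108 ± 2.08), SNHG8 (69.5 ± 4.56), GAS5 (42.9 ± 3.42), SNHG3 (29.8 ± 2.24), SNHG5 (26.2 ± 2.183), SNHG15 (19.3 ± 0.657), SNHG16 (10.95 ± 0.830) and SNHG12 (6.23 ± 0.222). There SNHG6 overlapped SNHG1 and SNHG3 overlapped SNHG5.

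In U937 with NEL, SNHG6 led at 60.6 ± 5.87 RPKM, followed by SNHG1 (35.1 ± 0.786), GAS5 (32.99 ± 2.11), SNHG5 (29.9 ± 3.89), SNHG8 (23.4 ± 1.77), SNHG12 (10.4 ± 0.438), SNHG3 (10.1 ± 0.554), SNHG15 (7.71 ± 0.115) and SNHG16 (4.71 ± 0.318; SD, n = 4). SNHG1, GAS5 and SNHG5 each overlapped the next of them, as did SNHG12 and SNHG3. In U937 with DMSO, SNHG6 (42.4 ± 4.37), SNHG1 (41.0 ± 1.38) and GAS5 (40.3 ± 2.25) overlapped at the top, and SNHG5 (28.3 ± 3.85), SNHG8 (25.6 ± 2.07) and SNHG3 (24.7 ± 0.889) overlapped below them. SNHG15 (14.5 ± 0.705), SNHG12 (12.4 ± 0.479) and SNHG16 (8.25 ± 0.571) followed without overlap.

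These per-length levels use all annotated exons of a gene joined, and for several hosts that union covers most of the gene. It spans 96.6% of SNHG1, 92.6% of SNHG15, 83.2% of SNHG3, 82.8% of SNHG8, 75.96% of SNHG12, 72.9% of GAS5 and 70.7% of SNHG16, but 26.4% of SNHG6 and 12.4% of SNHG5. Reads from introns retained in the polyadenylated RNA are therefore counted in the first 7, and spliced and unspliced forms cannot be told apart.

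**Figure D3:**
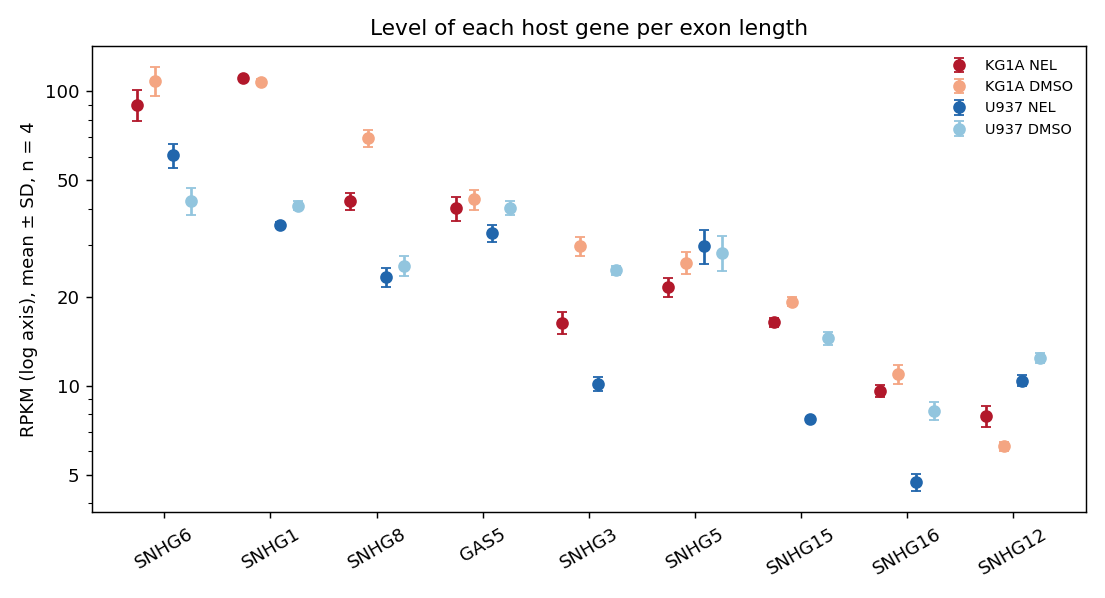
Mean RPKM ± SD (n = 4) of each snoRNA host gene in the 4 groups on a log axis, ordered by the level in KG1A with DMSO. SNHG6 and SNHG1 are at 108 to 109 RPKM there and SNHG12 at 6.23, and the U937 points of SNHG1, SNHG6 and SNHG8 lie far below those of KG1A.

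Library number moved with several hosts. GAS5, SNHG5, SNHG6, SNHG8 and SNHG15 were lower in libraries 1 and 3 than in libraries 2 and 4 in 4 of 4 groups, by 0.22 to 0.28 on the log2 scale for SNHG6 and by 0.12 to 0.32 for SNHG5. SNHG3 was higher in libraries 1 and 3 in 4 of 4 groups, by 0.08 to 0.20. Within libraries 1 and 3 alone and within 2 and 4 alone, each host called for NEL kept its call and direction in each line, except SNHG8 in U937 in libraries 2 and 4.

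Among the other non-coding hosts, a list of 19, more were called lower than higher in each line. Over all genes tested, 23.6% were called higher and 23.6% lower in KG1A, and 34.6% and 34.7% in U937. The counts of this list and of those that follow are to be read beside these shares. In KG1A 2 were called higher and 6 lower of 15 tested, and in U937 2 higher and 9 lower of 16, with median log2 fold changes of −0.23 in KG1A and −0.50 in U937. On log2 RPKM values, where the median over all genes moved to 0.05 in KG1A and 0.07 in U937, the list medians were −0.10 in KG1A and −0.30 in U937. SNHG19 fell by 1.12 on the log2 scale in KG1A (edgeR adjusted p = 2.92e-06). DANCR, a host whose RNA is known for restraining differentiation, fell in KG1A (−0.31, edgeR adjusted p = 1.54e-05) and in U937 (−1.09, edgeR adjusted p = 9.88e-09). SNHG17 fell in U937 (−0.84, edgeR adjusted p = 4.83e-07). SNHG32 rose in both, by 0.20 in KG1A (edgeR adjusted p = 0.00142) and 0.84 in U937 (edgeR adjusted p = 2.06e-09). ZFAS1, another TOP host, rose in U937 (0.66, edgeR adjusted p = 2.89e-07), and SNHG11 rose in KG1A (0.40, edgeR adjusted p = 0.027).

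Protein-coding hosts, whose mRNA is translated, were called higher in 1 and lower in 31 of 41 in KG1A, and higher in 4 and lower in 32 of 41 in U937, with medians of −0.30 and −0.37. In KG1A, RPL5 fell (−0.54, edgeR adjusted p = 2.61e-07), as did RPL30 (−0.47, edgeR adjusted p = 6.25e-07), and CWF19L1 rose (0.29, edgeR adjusted p = 0.00195). In U937, the chaperone HSPA8 fell (−1.73, edgeR adjusted p = 3.14e-12) and the RNA helicase DDX39B rose (0.54, edgeR adjusted p = 2.46e-05), as did TAF1D (0.17, edgeR adjusted p = 0.00346). Many in this list are ribosomal protein genes, which are also counted in the next one.

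Ribosomal protein genes, the main class of TOP mRNAs, were called lower in 67 and higher in 0 of 78 in KG1A (median −0.38), and lower in 64 and higher in 1 of 78 in U937 (median −0.33). RPS15 fell in KG1A (−0.61, edgeR adjusted p = 7.6e-08) and in U937 (−0.71, edgeR adjusted p = 1.29e-08), RPS25 fell in KG1A (−0.52, edgeR adjusted p = 5.87e-08), and RPL35 fell in U937 (−0.62, edgeR adjusted p = 2.91e-08). RPS27 rose in U937 (0.81, edgeR adjusted p = 0.000947). Processed copies of these genes are many, so their single values are uncertain. Translation factors and other TOP mRNAs were called lower in 11 and higher in 0 of 14 in KG1A (median −0.30), and lower in 9 and higher in 2 of 14 in U937 (median −0.19). On log2 RPKM values 7 were called lower in KG1A and 4 in U937 (median −0.10 in U937), and with upper quartile factors 7 were called lower in U937 (median −0.13). The poly(A) binding protein PABPC1 fell in KG1A (−0.51, edgeR adjusted p = 2.01e-07), the initiation factor subunit EIF3E fell in KG1A (−0.42, edgeR adjusted p = 5.53e-07) and U937 (−0.42, edgeR adjusted p = 1.43e-06), and the nucleolar protein NPM1 fell in U937 (−0.88, edgeR adjusted p = 8.96e-09). NAP1L1 rose in U937 (0.27, edgeR adjusted p = 0.000733), as did TPT1 (0.17, edgeR adjusted p = 0.0359).

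Genes of proteins that package and assemble snoRNAs differed in their NEL effect between the lines. In U937, 15 of 17 were called lower and 0 higher (median −0.94), and in KG1A 6 were called lower and 2 higher (median −0.08). The difference between the lines was called lower in U937 for 16 of 17, where 26.3% of all genes tested were. NOP56, a core C/D protein that also hosts snoRNAs, fell by 1.35 on the log2 scale in U937 (edgeR adjusted p = 2.36e-10), and NHP2, a core H/ACA protein, fell by 1.24 (edgeR adjusted p = 5.16e-10). In KG1A, FBL, the C/D methyltransferase, fell (−0.31, edgeR adjusted p = 0.0015), as did the assembly factor ZNHIT6 (−0.25, edgeR adjusted p = 0.00473), while the assembly factors RPAP3 (0.25, edgeR adjusted p = 0.00588) and SHQ1 (0.22, edgeR adjusted p = 0.0406) rose. On log2 RPKM values 1 and not 6 was called lower in KG1A, with a median of −0.02. Without NEL all 17 were called higher in U937 than in KG1A, among them NOP56 (1.16, edgeR adjusted p = 2.23e-12), where 43% of genes were.

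NMD factors were called higher in 3 and lower in 5 of 15 in KG1A (median 0.04), and higher in 2 and lower in 9 of 15 in U937 (median −0.21). The KG1A median was −0.03 in libraries 2 and 4 alone and 0.02 in libraries 1 and 3 alone, and 4, not 2, were called higher in U937 in libraries 1 and 3 alone. On log2 RPKM values 2 were called lower in KG1A (median 0.10), and the U937 median was −0.12. UPF1, the NMD helicase, fell in U937 (−0.48, edgeR adjusted p = 1.48e-07), as did RNPS1 (−0.50, edgeR adjusted p = 6.23e-08), and SMG6 (0.18, edgeR adjusted p = 0.0232) and SMG5 (0.09, edgeR adjusted p = 0.0333) rose there. In KG1A, CASC3 fell (−0.33, edgeR adjusted p = 2.95e-05), and UPF3B rose (0.40, edgeR adjusted p = 0.00066), as did SMG5 (0.18, edgeR adjusted p = 0.000901).

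Protein-coding transcripts used as readouts of NMD, which rise when it is blocked, were called higher in 4 and lower in 2 of 7 in KG1A (median 0.18), and higher in 4 and lower in 3 of 7 in U937 (median 0.09). The U937 median was 0.18 on log2 RPKM values and 0.15 with upper quartile factors, and 1 was called lower in KG1A on log2 RPKM values. SMG5, also counted among the NMD factors, was called higher in each line, and its value was the median of this list in each. GADD45B rose in KG1A (0.52, edgeR adjusted p = 3.68e-05) and U937 (0.38, edgeR adjusted p = 4.31e-05), and ATF4 fell in KG1A (−0.54, edgeR adjusted p = 1.59e-06) and U937 (−0.40, edgeR adjusted p = 2.93e-05). In KG1A TBL2 also fell (−0.19, edgeR adjusted p = 0.00964). In U937 UPP1 rose (0.86, edgeR adjusted p = 3.85e-06) and BAG1 fell (−0.79, edgeR adjusted p = 7.87e-08). The readouts moved in both directions in each line, and whether NMD itself changed was not tested.

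**Figure D4:**
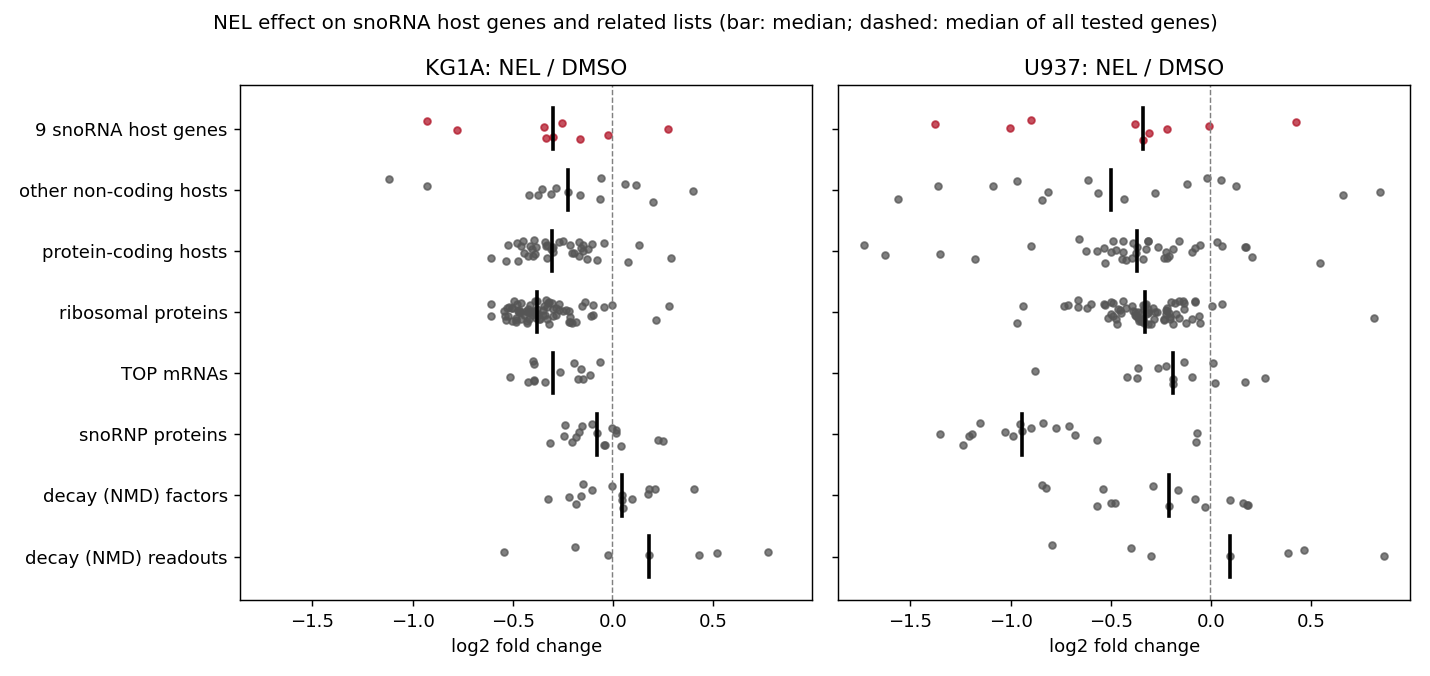
Log2 fold change of NEL over DMSO for each tested gene (points) of the snoRNA host genes (red) and of 7 related lists (grey), in KG1A and U937, with the list median as a bar and the median of all tested genes dashed. The snoRNP protein list sits near 0 in KG1A (median −0.08) and far to the left in U937 (median −0.94), while the ribosomal protein medians are close to each other, −0.38 in KG1A and −0.33 in U937.

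The RefSeq promoter table (GRCh38.p14, 250 bases before to 50 after the start) held 7 of the 9 hosts. The windows of SNHG12 and SNHG8 are shown because these hosts moved in opposite directions in KG1A, though both were called lower in U937. A link between these sequences and the NEL effect was not tested. Capitals mark the longest run of C or T from 5 bases before to 20 after the start.
SNHG12 (chr1:28581824-28582123, minus strand): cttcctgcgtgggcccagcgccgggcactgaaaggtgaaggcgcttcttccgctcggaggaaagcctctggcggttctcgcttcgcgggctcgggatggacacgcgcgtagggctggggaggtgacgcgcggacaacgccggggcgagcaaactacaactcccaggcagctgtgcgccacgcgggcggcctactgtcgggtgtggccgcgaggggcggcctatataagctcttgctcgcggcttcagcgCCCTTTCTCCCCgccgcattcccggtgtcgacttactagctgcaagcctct
SNHG8 (chr4:118278512-118278811, plus strand): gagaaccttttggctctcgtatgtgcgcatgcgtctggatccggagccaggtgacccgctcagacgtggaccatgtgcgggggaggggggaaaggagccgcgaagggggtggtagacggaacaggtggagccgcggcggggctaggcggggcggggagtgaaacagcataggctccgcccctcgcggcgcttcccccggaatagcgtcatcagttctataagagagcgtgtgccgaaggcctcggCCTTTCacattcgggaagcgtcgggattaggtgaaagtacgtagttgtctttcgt
The run was 12 bases in SNHG12, a length reached by 2.03% of 35116 promoters, and 6 bases in SNHG8, SNHG3 and SNHG5, a length reached by 23.3%. It was 8 in SNHG16 (9.57%), 7 in SNHG1 (14.6%) and 4 in GAS5 (64.3%). The start in this table is that of the transcript shown above for SNHG5 and SNHG12, and not for the other hosts. The motif CACGTG, the E-box bound by MYC and related factors and its own reverse complement, was in 0 of these 7 windows and in 7.26% of all promoters. SNHG15 has no window in this table, and the first 30 bases of its transcript printed above do hold CACGTG.

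Genes whose log2(CPM + 0.5) followed each host most closely were sought among 10937 genes over the 16 libraries, which share lines and treatment, so the values describe likeness across these 4 groups alone. SNHG15 was most like DDX10, a nucleolar helicase gene (Pearson r = 0.994), and MYC (0.993). SNHG8 was most like EEF2, the translation elongation factor and itself a TOP mRNA (0.993), and USP34 (0.992). GAS5 was most like EEF1D (0.974), a subunit of an elongation factor complex, and EWSR1 (0.968). For SNHG12 the nearest were SSR3 (0.987) and RRP36 (0.981), a ribosome biogenesis gene.

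SNHG1 was nearest to MTSS1 and NUP50 (0.999 and 0.998), and SNHG6 to AKAP9 and ARHGAP15 (0.994 and 0.992). SNHG3 was nearest to ATXN7L3 and RMND5B (0.988 and 0.987), and SNHG16 to ZNF639 and FAM86C1P (0.991 and 0.988). SNHG5 had the weakest best matches, TOP2B (0.930) and NSRP1 (0.920), and its group mean CPM also spanned the narrowest range of the 9 by ratio.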

How the data were processed

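Per the labels' protocols, total RNA of KG1A and U937 cells was extracted (Trizol, then a spin column), and stranded poly(A) libraries were built with a Kapa kit. HTSeq 0.11.2, TopHat2 and bcl2fastq 2.18.0.12 are named in the submitters' processing notes, with the build hg19 (GRCh37). No source used here gives the annotation or whether the counting used strand. Deposited by the authors were raw read counts per gene and RPKM of those 16 libraries. The deposited RPKM came out as the counts divided by exon length and library total, to within 1.86e-07 of the value, and are used for levels between genes and for alternatives. All columns matched a sample. Of 34618 gene IDs, 32562 matched a symbol, and the rest held 0.878% of counts.

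The quasi-likelihood test of edgeR 4.0.16 in R 4.3.3, with TMM scaling and its filter on low counts (count at least 10, total at least 15), was run on all genes, with Benjamini-Hochberg adjusted 2-sided p and a call at 0.05. Each line's NEL effect was fitted over 8 libraries, the difference of NEL effects over 16, and the lines over the 8 DMSO libraries. SE is the log2 fold change divided by the square root of the F statistic. The steps were tested on simulated data. The hosts and the lists were chosen with earlier results of these data known. The text names the 9 hosts, their neighbours within 5 kb, and the 2 called genes of smallest p in each direction of each list in each line. It also names the 2 genes most like each host, among genes averaging 5 CPM or more. Listed genes with no row were not analysed here. A few genes that the rule or the marker list named are not reported here.

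The alternatives were DESeq2 size factors, upper quartile factors, no filter, a stricter filter (1 CPM, 4 libraries), limma 3.58.1 with voom, limma-trend on log2(RPKM + 0.5) and log2(RPKM + 0.1), the test of DESeq2 1.42.0, and a threshold of 0.01. Each library was also left out in turn, and libraries 1 and 3 or 2 and 4 were fitted alone, or used as a covariate. Libraries 1 and 2 were summed, as were 3 and 4, and all 16 libraries were fitted in 1 model. Those for the lists were chosen after seeing the data. Groups share the replicate numbers 1 to 4. Deviations from the group means of same-numbered libraries correlated at 0.277 to 0.368 in every pair, which meets the rule for pairing, but libraries 1 with 3 and 2 with 4 of different groups correlated as well, at 0.263 to 0.403. No 2 libraries agreed within sampling noise. Sequences come from GENCODE 29 (GRCh38) and RefSeq and were matched by symbol. Figures were drawn with matplotlib.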

Additional observations from a re-analysis of the deposited data

Results flagged for a closer look

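For each of the 9 hosts the NEL effect differed between the lines by the interaction test, so all 9 differences are given, as U937 minus KG1A on the log2 scale. They were −0.71 for SNHG15, −0.66 for SNHG16, −0.62 for SNHG12, −0.46 for SNHG3, −0.30 for SNHG1 and −0.22 for GAS5, all with the more negative NEL effect in U937. For SNHG6 (0.75), SNHG8 (0.55) and SNHG5 (0.32) the NEL effect was less negative or upward in U937, where SNHG8 still fell (−0.22). These are differences of effects, not of levels. Since 47.4% of all genes tested differed, a difference is not particular to these hosts. SNHG6 and SNHG12 are the 2 whose calls have opposite directions in the lines, and MCMDC2, antisense to SNHG6, differed in the same sense as it (0.44, edgeR adjusted p = 0.038). ST6GALNAC2, antisense to SNHG16, differed by −0.79 (edgeR adjusted p = 1.02e-05) and RCC1, which spans SNHG3, by −1.12 (edgeR adjusted p = 2.48e-13). Both genes antisense to GAS5 differed in the opposite sense to it, ZBTB37 by 0.31 (edgeR adjusted p = 0.0206) and GAS5-AS1 by 0.78 (edgeR adjusted p = 0.0451). What part these overlapping genes have in the host values was not tested. Dixon's test, run for each host in each group of 4 libraries, flagged no library in any of the 36 tests at its critical value of 0.829. The closest was SNHG8 in KG1A DMSO library 4, at 0.805. With 4 libraries that split by number, this test can hardly flag 1 library, so nothing is concluded from it.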

How the results depend on the processing

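Of the calls for NEL, only GAS5 in KG1A and SNHG8 in U937 were lost under any alternative, so 6 or 7 hosts were called lower and 1 higher in each line throughout. GAS5 and SNHG5 were the hosts whose difference between the lines was lost, which left 5 or 6 called lower and 2 or 3 higher. At an adjusted p under 0.01 each of these calls was lost, as was GAS5 between the DMSO groups. Between the DMSO groups GAS5 was lost with upper quartile factors (adjusted p = 0.0904) and log2 RPKM (0.199 and 0.2), and SNHG5 was gained in libraries 2 and 4 alone (0.13, adjusted p = 0.0478), where 2 hosts were called higher. Signs turned only in uncalled values: SNHG1 in KG1A with log2 RPKM (0.0405 and 0.0407), and SNHG5 in U937 with upper quartile factors (0.0459), with log2 RPKM (0.0781 and 0.0792) and without U937 NEL library 1 or 3 or DMSO library 2 or 4 (−0.0808 to 0.0484 over all libraries left out in turn). Between the DMSO groups SNHG5 turned in libraries 1 and 3 alone (−0.0392) and without U937 DMSO library 2 (−2.69e-05 to 0.124 over all left out in turn). The cause was not tested. By CPM in place of RPKM, 2 hosts kept their rank in KG1A with NEL, 1 in KG1A with DMSO, 2 in U937 with NEL and 2 in U937 with DMSO. With the replicate number as a block no call of a host changed. That fit has few libraries for its terms, so its p-values are not to be trusted. For SNHG3 in U937 (−1.38) its edgeR adjusted p was 3.84e-30, against 4.56e-11 without the block. Pairing by number is itself uncertain, since libraries 1 with 3 and 2 with 4 correlated as well. Leaving out each library in turn kept every other call. Each host had 221 counts or more per library. Limits are the spread between libraries of unknown origin and reads shared with overlapping genes.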
